A study of Mus musculus with 12 samples.

Results

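Interferon response genes were examined in yolk sacs of mice made to express Norrin and in wild type yolk sacs. The yolk sac is the extraembryonic membrane that feeds the early embryo and makes its first blood cells and vessels, and Norrin is a secreted protein that activates the receptor Frizzled4. The set had 9 genes, namely Ifit1, Ifit2, Ifit3, Isg15, Cxcl10, Irf7, Usp18, Oasl2 and Bst2. A gene was read from the probe sets of the Affymetrix mouse genome array that the annotation gives to that gene alone, and 8 of the 9 had such a probe set, 1 each, among 18193 genes in all. Isg15 shares its probe set with the predicted gene Gm9706, so it has no value of its own. The 4 groups were Z/Norrin at embryonic day 10.5 (E10.5), wild type at E10.5, Z/Norrin at E8.5 and wild type at E8.5, with 3 arrays each. Z/Norrin mice (called Norrin here) made Norrin ectopically from a conditional over-expression allele, and the Cre driver and the time of its activation are not given in the sources used here. All groups were on a mixed C57Bl6/129 background and of mixed sex, and each array held RNA of a separate pool of the yolk sacs of 3 to 5 embryos.

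Cells that sense viral or misplaced nucleic acid secrete type I interferons, which bind a receptor pair on the same and neighbouring cells. JAK kinases at the receptor then activate STAT proteins, which join IRF9 in the complex ISGF3. ISGF3 binds the interferon-stimulated response element (ISRE) in the promoters of interferon response genes. Many of these genes can also be switched on by IRF factors directly or, as for Cxcl10, with help from NF-kB. Their products restrict viral RNA and budding virus, recruit immune cells or feed back on the pathway, and macrophages are among the cells that respond strongly.

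The ISRE was searched as the letters GAAA, any 2 bases and GAAA on both strands (TTTC, any 2 bases and TTTC where it lies on the other strand), in windows of 250 bases before to 50 after each RefSeq transcription start on mouse build GRCm38.p6. Such a match was present in 3.44% of 32851 windows. Of the 9 genes 8 had a window (Usp18 is named only), and 5 of these held a match: Ifit1, Ifit3, Isg15, Cxcl10 and Bst2. The windows of Ifit2 (2 starts), Irf7 and Oasl2 held none. The 5 windows below are shown because they set genes with matched letters beside Oasl2, which has none, and because these genes differ in their response to Norrin at E10.5. Each reads 5′ to 3′ on the strand of its gene, with the ISRE match in capitals.
Ifit1, chr19:34640639-34640938, plus strand: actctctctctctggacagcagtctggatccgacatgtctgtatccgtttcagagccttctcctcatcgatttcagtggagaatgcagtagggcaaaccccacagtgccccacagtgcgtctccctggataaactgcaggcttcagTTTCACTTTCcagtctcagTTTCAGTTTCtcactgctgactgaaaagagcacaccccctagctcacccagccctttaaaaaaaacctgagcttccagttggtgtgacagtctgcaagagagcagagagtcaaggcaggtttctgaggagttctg
Ifit3, chr19:34583279-34583578, plus strand: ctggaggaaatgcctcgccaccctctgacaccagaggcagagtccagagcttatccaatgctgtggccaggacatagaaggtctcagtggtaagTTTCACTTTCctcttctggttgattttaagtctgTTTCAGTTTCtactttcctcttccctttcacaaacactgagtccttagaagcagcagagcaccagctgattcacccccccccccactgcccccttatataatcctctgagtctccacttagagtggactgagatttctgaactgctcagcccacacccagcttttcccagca
Cxcl10, chr5:92348840-92349139, minus strand: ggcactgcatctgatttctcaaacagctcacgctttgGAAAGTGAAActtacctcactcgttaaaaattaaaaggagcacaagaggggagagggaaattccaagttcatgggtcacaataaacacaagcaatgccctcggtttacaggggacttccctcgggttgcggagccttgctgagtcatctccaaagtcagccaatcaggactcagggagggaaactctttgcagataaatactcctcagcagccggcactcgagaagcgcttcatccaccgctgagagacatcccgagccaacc
Bst2, chr8:71537423-71537722, minus strand: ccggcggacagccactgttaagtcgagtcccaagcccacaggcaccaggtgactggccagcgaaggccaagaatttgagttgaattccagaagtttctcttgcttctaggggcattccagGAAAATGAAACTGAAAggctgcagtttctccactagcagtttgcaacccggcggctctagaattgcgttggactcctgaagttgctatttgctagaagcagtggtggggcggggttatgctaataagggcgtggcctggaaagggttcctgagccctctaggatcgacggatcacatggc
Oasl2, chr5:114896684-114896983, plus strand: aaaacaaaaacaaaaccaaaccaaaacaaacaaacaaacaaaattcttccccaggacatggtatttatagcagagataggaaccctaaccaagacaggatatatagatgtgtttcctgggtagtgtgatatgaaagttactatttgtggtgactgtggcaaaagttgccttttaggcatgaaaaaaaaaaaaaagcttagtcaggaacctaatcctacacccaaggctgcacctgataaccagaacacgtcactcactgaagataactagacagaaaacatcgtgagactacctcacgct

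The matches of Ifit1 began 104 and 85 bases before the start, and those of Ifit3 began 156 and 122 bases before it. Both genes held the same pair of 10-letter strings in the same order, tttcactttc and then tttcagtttc. The single match of Cxcl10 lay 213 bases before the start. Bst2 held a pair of overlapping matches, beginning 130 and 124 bases before the start, and the first of them also overlapped a GAS match. GAS, the site of STAT dimers, was searched as TTC, any 3 bases and GAA, was present in 8.3% of windows and also occurred in 1 window of Ifit2. A kappaB match (GGGA, any base and TTTCC, on both strands) was found in 0 of the 9 windows and in 0.411% of all. These letters are 1 narrow form of the kappaB site, and other forms were not searched. The 0 matches thus do not show that a window, such as that of Cxcl10, lacks a kappaB site. Of 40 other type I interferon-stimulated genes, 30 had a window and 10 held an ISRE match. A match of letters is a description of the sequence and not evidence that a factor binds there.

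**Figure D1:**
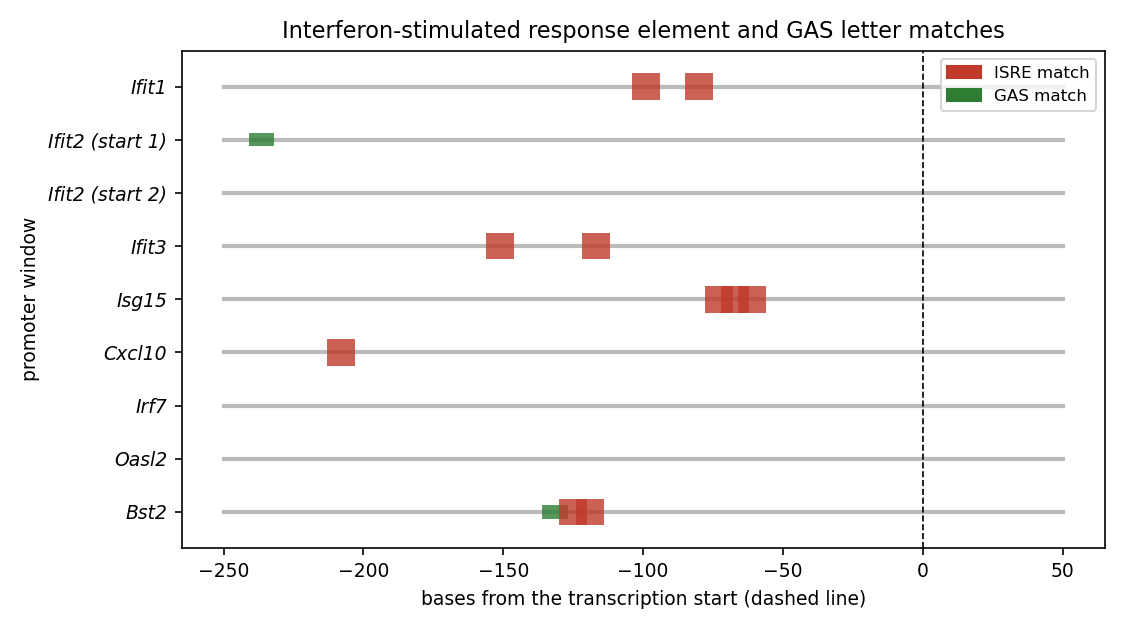
Position of ISRE (red) and GAS (green) letter matches in the 9 promoter windows of the 8 genes with a RefSeq window; the x axis gives bases from the transcription start and each grey line is 1 window. Matches begin between 241 and 66 bases before the start, and the windows of Irf7, Oasl2 and the other start of Ifit2 hold none.

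The arrays within a stage were alike in scale, with median log2 levels of all probe sets of 6.97 to 7.01 at E10.5 and 6.59 to 6.73 at E8.5. Each stage was normalized in its own run, so stage and run cannot be told apart. Norrin E10.5 replicate 2 stood apart from the other 5 pools of its stage in trophoblast and stress genes. Its mean log2 level over the 6 measured trophoblast markers of 12 listed was 9.26, against 6.89 to 7.46 in the other 5, with Tpbpa at 11.90, against 5.63 to 6.55. The stress genes Hspa1a (11.06 against 6.43 to 7.61), Hspa1b (12.14 against 7.69 to 10.50) and Fos (10.80 against 8.97 to 9.35) were also highest in that pool. Of the 6 trophoblast markers 0 passed the limma threshold between the genotypes at E10.5, and 1 had an unadjusted p under 0.05. The E10.5 results of the 8 genes and the calls of the gene lists are therefore given with and without it, and the part of these markers in them was not tested. In pooled tissue, fewer cells of a type and less RNA per cell cannot be told apart. The probe set of Ndp, the gene of Norrin, read 4.49 in Norrin and 4.49 in wild type at E10.5, and 4.54 and 4.59 at E8.5, and whether it covers the transgene is not given, so it does not check the labels.

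At E10.5, Norrin yolk sacs had more transcript of 4 of the 8 measured interferon response genes: Ifit1 (4.50-fold), Oasl2 (3.77-fold), Ifit2 (2.07-fold) and Cxcl10 (1.75-fold). None of the 8 was lower past the threshold. The call required an adjusted p under 0.05 from limma over all 18193 genes, and 50% of these 8 genes passed it, against 4.07% of all genes (1.85% as higher). Their median log2 difference was 0.71, against -0.00 over all genes, and 7 of 8 were positive, against 49% of genes. An unadjusted p under 0.05 was found for 6 of the 8, against 14% of genes. The Norrin and wild type pools did not overlap, with Norrin higher, for 6 of the 8, against 11.4% of all genes. The set was chosen with earlier results of these data known, so these shares describe it and do not test it. At E8.5, 0 of 8 passed the limma threshold. The wild type E10.5 means of Ifit1 (5.60), Oasl2 (5.17) and Ifit2 (5.96) lay below 6.18, the lower quartile of all genes, where arrays resolve changes poorly, so the folds of these genes are less certain than their intervals.

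The Ifit genes encode proteins that bind foreign or uncapped RNA and lie together on chromosome 19. Ifit1 (chr19:34640889-34650009 on GRCm38.p6) had log2 levels of 6.88, 8.38 and 8.05 in the 3 Norrin pools at E10.5, against 5.71, 5.70 and 5.40 in the wild type pools. All 3 Norrin pools lay above all 3 wild type pools, with replicate 1 lowest of the Norrin pools. The log2 difference was 2.17 (SE 0.30, 95% interval 1.51 to 2.83, limma adjusted p = 0.00237). Without Norrin replicate 2 it was 1.87 (adjusted p = 0.00569).

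Ifit2 (chr19:34550550-34576534) read 6.91, 6.92 and 7.20 in the Norrin pools at E10.5, against 6.18, 5.96 and 5.73 in the wild type pools. The groups did not overlap, and Ifit2 was the gene with the closest Norrin pools relative to its difference among the 4 called. Its log2 difference was 1.05 (SE 0.18, interval 0.66 to 1.44, limma adjusted p = 0.00633), and 1.10 without Norrin replicate 2 (adjusted p = 0.0144). Ifit3 (chr19:34583119-34588982) read 7.16, 7.46 and 7.37 in the Norrin pools, against 6.73, 6.94 and 6.88 in the wild type pools. These groups did not overlap either, but the difference of 0.48 (interval 0.17 to 0.80) did not pass the threshold (limma adjusted p = 0.101). With the replicate number as a block, which pairs the pools of a stage, the adjusted p was 0.0174, and without Norrin replicate 2 the difference was 0.42 (adjusted p = 0.278). Ifit3 also passed when Norrin E8.5 replicate 3 was left out (adjusted p = 0.0393).

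Oasl2 encodes an oligoadenylate synthetase-like antiviral protein on chromosome 5 (chr5:114896926-114912245). It read 6.60, 8.01 and 6.63 in the Norrin pools at E10.5, against 5.04, 4.97 and 5.49 in the wild type pools. The lowest Norrin pool lay above the highest wild type pool, and replicate 2 lay well above the other two Norrin pools. The log2 difference was 1.91 (SE 0.33, interval 1.21 to 2.62, limma adjusted p = 0.00646), and 1.45 without replicate 2 (adjusted p = 0.0047).

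Bst2 encodes tetherin, a membrane protein that holds budding virus on the cell surface (chr8:71534255-71537472). It read 9.58, 10.15 and 9.21 in the Norrin pools at E10.5, against 9.92, 10.03 and 9.57 in the wild type pools. The groups overlapped, and Norrin pools held both the highest and the lowest value. The log2 difference was -0.19 (interval -0.71 to 0.33, limma adjusted p = 0.882), and -0.44 without Norrin replicate 2 (adjusted p = 0.45).

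Cxcl10 encodes a secreted chemokine that attracts T cells and natural killer cells (chr5:92346638-92348889). It read 7.25, 7.95 and 7.75 in the Norrin pools at E10.5, against 6.89, 6.77 and 6.88 in the wild type pools. The wild type pools were close together and all 3 Norrin pools lay above them. The log2 difference was 0.81 (SE 0.17, interval 0.43 to 1.18, limma adjusted p = 0.0216). This call was lost when any one of 5 E10.5 pools was left out: Norrin replicate 2 (adjusted p = 0.0802, difference 0.66), Norrin replicate 3 (0.101), or wild type replicate 1 (0.0584), 2 (0.0815) or 3 (0.0642). It was also lost in a fit of the 6 E10.5 arrays alone (adjusted p = 0.0543).

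Irf7 encodes the transcription factor that amplifies type I interferon production (chr7:141263183-141266499). It read 6.46, 6.81 and 6.41 in the Norrin pools at E10.5, against 6.15, 5.83 and 6.02 in the wild type pools. The groups did not overlap, but the log2 difference of 0.56 (interval 0.18 to 0.93) did not pass the threshold (limma adjusted p = 0.109). With the replicate block the adjusted p was 0.0244, and without Norrin replicate 2 the difference was 0.43 (adjusted p = 0.322).

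Usp18 encodes a protease that removes ISG15 from proteins and damps signalling at the interferon receptor (chr6:121245906-121270917). It read 6.89, 8.40 and 7.15 in the Norrin pools at E10.5, against 6.80, 7.02 and 6.76 in the wild type pools. Norrin replicate 2 stood apart, and replicate 1 lay inside the wild type range. The log2 difference of 0.62 (interval -0.04 to 1.28, limma adjusted p = 0.4) was 0.16 without replicate 2 (adjusted p = 0.895).

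ISG15 is the ubiquitin-like protein that Usp18 removes. The probe set that Isg15 shares with Gm9706 read 7.31, 8.63 and 7.84 in the Norrin pools at E10.5, against 7.10, 7.06 and 7.10 in the wild type pools. The groups did not overlap, with replicate 2 again the highest Norrin pool. The log2 difference was 0.84 (SE 0.25, limma adjusted p = 0.138 over 45101 probe sets), and it cannot be assigned to Isg15 alone.

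**Figure D2:**
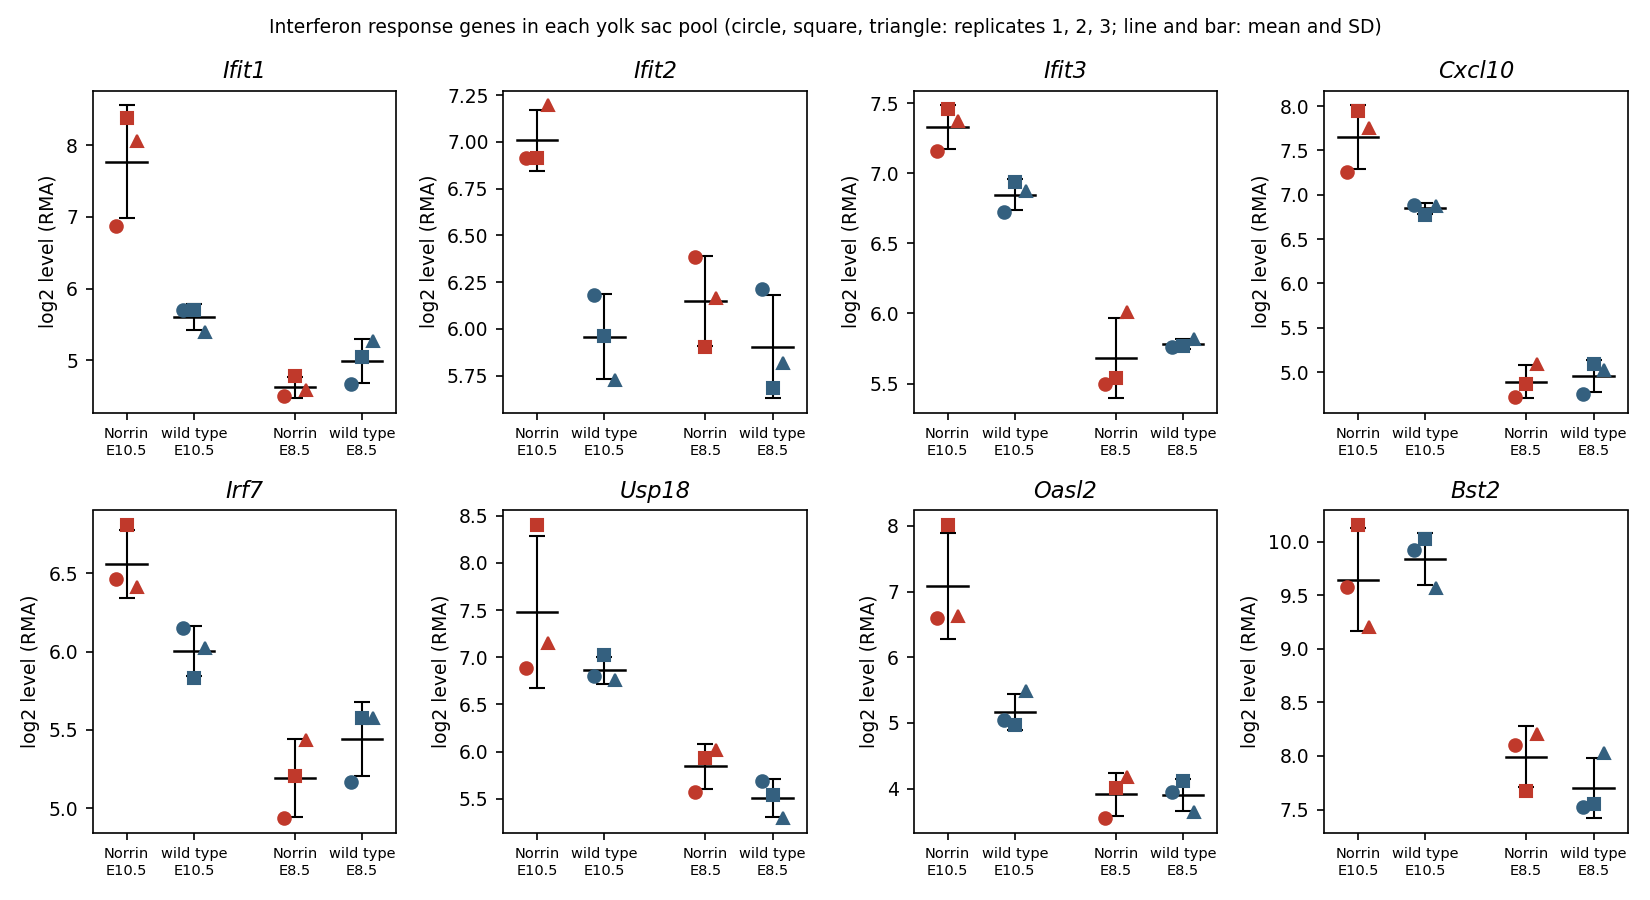
Log2 level (RMA) of the 8 measured genes in each of the 12 pools, Norrin in red and wild type in blue, with the mean and SD of each group of 3. At E10.5 the Norrin pools lie above the wild type pools for all genes but Usp18 and Bst2, and at E8.5 the groups overlap for all 8.

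Set against the wild type mean of E10.5, the 8 genes were on average 0.58, 1.37 and 0.83 log2 units higher in Norrin replicates 1, 2 and 3, while the wild type pools lay within -0.05 to 0.04. In Norrin replicates 1 and 3, 7 of the 8 genes lay above that mean, and in replicate 2 all 8 did. Replicate 2 held the highest Norrin value for 7 of the 8 genes, and Ifit2 was highest in replicate 3. Bst2 was the gene below the wild type mean in replicates 1 and 3. Without replicate 2, 3 of the 8 genes remained past the threshold (Ifit1, Ifit2 and Oasl2).

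**Figure D3:**
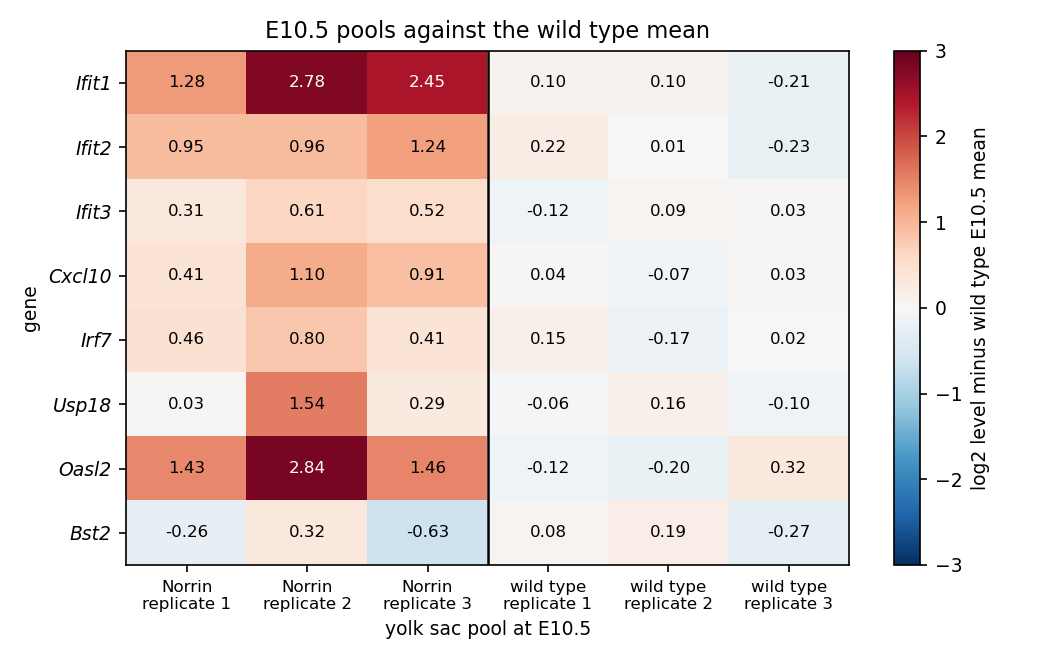
Log2 level of each gene in each E10.5 pool minus the wild type E10.5 mean of that gene, in red above and blue below, with the Norrin pools left of the line. Norrin replicate 2 has the highest mean over the 8 genes (1.37), and all 3 Norrin pools are above the wild type mean for every gene but Bst2.

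The genes varied together to different degrees. Over 28 pairs of genes, Pearson's r across the 12 arrays had a median of 0.67 (-0.13 to 0.95) after the stage means were subtracted, and 0.45 (-0.49 to 0.88) after the group means were subtracted. All genes were read on the same arrays, and the arrays of a stage share a normalization run, so the values are descriptions. The closest pair was Ifit1 with Cxcl10 (r = 0.95, and 0.84 within groups), and the least alike was Ifit1 with Bst2 (r = -0.13). Ifit1 and Ifit2, which had r = 0.74 across the stage-centred arrays, had r = -0.07 within groups.

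At E8.5, the Norrin and wild type pools overlapped for all 8 genes, while 11.9% of all genes had groups that did not overlap. With limma, 0 of the 8 passed the threshold (0.077% of all genes) and 0 had an unadjusted p under 0.05 (7.22% of all genes). The median log2 difference was -0.03, and the values ran from -0.37 for Ifit1 to 0.33 for Usp18. Ifit1 read 4.49, 4.78 and 4.58 in the Norrin pools, against 4.66, 5.05 and 5.27 in the wild type pools. The interval of its difference ran from -1.04 to 0.29. Oasl2 read 3.55, 4.01 and 4.17 in the Norrin pools, against 3.95, 4.12 and 3.64 in the wild type pools, a difference of 0.01 (interval -0.70 to 0.72). Cxcl10 read 4.72, 4.87 and 5.09 in the Norrin pools, against 4.75, 5.09 and 5.03 in the wild type pools, a difference of -0.06 (interval -0.44 to 0.31). Ifit2 differed by 0.24 (interval -0.14 to 0.63). At this stage 6 to 7 of the 8 genes lay below 6.18, the lower quartile of all genes over the 12 arrays, in every pool, and Bst2 was the one gene with both group means above it. Arrays resolve changes poorly in that range, so the E8.5 intervals of the other 7 genes cover the spread between pools and not that limit.

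Whether the Norrin effect itself differed between stages was tested as an interaction. By limma, 0 of 8 passed the threshold (0.0934% of all genes did), and 6 had an unadjusted p under 0.05 (7.01% of all genes). For Ifit1 the Norrin effect was 2.54 log2 units larger at E10.5 than at E8.5 (interval 1.61 to 3.48, adjusted p = 0.0586). With the replicate block that difference passed (adjusted p = 0.0159), as it did without Norrin E10.5 replicate 1 (adjusted p = 0.00136). Oasl2 (1.91, adjusted p = 0.201), Cxcl10 (0.87, 0.303), Ifit2 (0.81, 0.375), Irf7 (0.80, 0.352) and Ifit3 (0.58, 0.469) did not pass by limma. The values for Usp18 (0.29) and Bst2 (-0.48) had intervals that held 0.

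**Figure D4:**
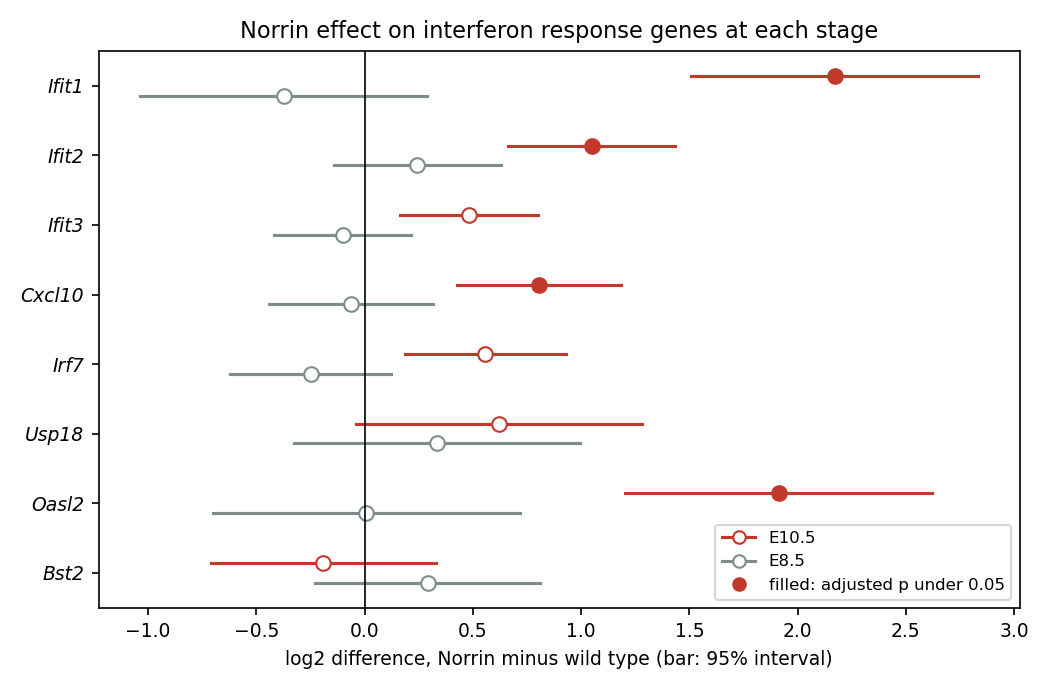
Norrin minus wild type log2 difference of each gene at E10.5 (red) and E8.5 (grey), with 95% intervals from limma; filled points passed an adjusted p of 0.05. Ifit1, Ifit2, Cxcl10 and Oasl2 are filled at E10.5, and every E8.5 interval holds 0.

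Levels also differed with stage. In Norrin yolk sacs all 8 genes were higher at E10.5 than at E8.5 by limma (37.9% of all genes were called, 28.2% as higher). The largest differences in Norrin were 3.17 for Oasl2 and 3.15 for Ifit1, and Ifit2 had the smallest, 0.86. In wild type 6 of the 8 were higher, where 32.5% of all genes were called and 25.4% as higher. In wild type, Bst2 averaged 9.84 ± 0.24 at E10.5, against 7.70 ± 0.28 at E8.5 (SD, n = 3 each), a difference of 2.13 (limma adjusted p = 5.79e-05). Cxcl10 averaged 6.85 ± 0.06 at E10.5, against 4.96 ± 0.18 at E8.5 in wild type, a difference of 1.89 (adjusted p = 1.66e-05 by limma, n = 3 each). The wild type differences of Usp18, Oasl2, Ifit3 and Irf7 were 1.35, 1.26, 1.07 and 0.56.

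Ifit1 and Ifit2 were the genes that did not pass in wild type. Ifit1 averaged 5.60 ± 0.18 at E10.5, against 4.99 ± 0.31 at E8.5 (0.61, limma adjusted p = 0.148, n = 3 each), and Ifit2 averaged 5.96 ± 0.23, against 5.91 ± 0.28 (0.05, limma adjusted p = 0.851, n = 3 each). Ifit1 passed in a fit of the 6 wild type arrays alone (adjusted p = 0.0397) and when Norrin E10.5 replicate 1 was left out (adjusted p = 0.0204), and Irf7 did not pass when wild type E8.5 replicate 1 (0.0944), wild type E10.5 replicate 1 (0.0837) or wild type E10.5 replicate 3 (0.0663) was left out.

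The stage values rest on the scaling, because the runs differed in level. The median of the log2 differences of all genes was 0.15 in Norrin and 0.14 in wild type. The array medians over these genes were 7.79 to 7.88 at E10.5 and 7.49 to 7.56 at E8.5. As deposited, 5133 genes were higher and 1762 lower at E10.5 in Norrin, and 4619 higher and 1296 lower in wild type. With each array centred on its median the split was 2688 higher and 5002 lower in Norrin, and 2450 and 4615 in wild type. With all 12 arrays quantile-normalized together it was 3060 and 3587 in Norrin, and 2909 and 3374 in wild type. In Norrin all 8 genes remained higher after centring and 7 after joint quantile normalization, without Ifit2 (adjusted p = 0.069). In wild type 5 of the 8 remained higher under both, without Irf7 (adjusted p = 0.177 and 0.234).

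The steps before the interferon response genes were read from lists of the pathway at E10.5. Of 11 interferon genes listed, 7 were measured, and 0 passed by limma, also with no adjustment of p (median log2 difference -0.06). Ifnb1 read 6.01, 6.22 and 6.21 in the Norrin pools, against 6.30, 6.11 and 6.36 in the wild type pools. The differences of the rest were -0.18 for Ifna1, -0.06 for Ifna2, 0.02 for Ifna4, -0.06 for Ifna11, -0.08 for Ifnab and 0.03 for Ifng. The arrays thus held no interferon transcript that differed past the threshold, and probe sets at these levels may not report low transcripts.

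Of 11 measured receptor chains, JAK kinases and ISGF3 subunits, 1 passed, as lower. This was Il10rb, a receptor chain shared by interleukin 10 and interferon lambda, which read 8.18, 8.89 and 8.31 in the Norrin pools, against 10.26, 9.98 and 9.98 in the wild type pools (-1.61, limma adjusted p = 0.000953). Another probe set of Il10rb differed by -0.33, and without Norrin replicate 2 the main one differed by -1.83 (adjusted p = 0.000365). Of the ISGF3 subunits, Stat2 differed by -0.31 (limma adjusted p = 0.467) and Irf9 by 0.30 (adjusted p = 0.362), and the remaining subunit is not analysed here. The type I receptor chains differed by 0.40 for Ifnar1 (limma adjusted p = 0.253) and -0.47 for Ifnar2 (adjusted p = 0.176). Without Norrin replicate 2, Ifnar2 also passed as lower. Of 19 nucleic acid sensing genes 0 passed in limma, with 3 before adjustment at a p under 0.05, against 14% of all genes. The median of the 19 was 0.01. With the replicate block 1 of them passed as lower, Irf2, a repressor of interferon response genes, and without Norrin replicate 2 there were 0. Ifih1, a sensor of long double-stranded RNA, differed by 0.59 (adjusted p = 0.347).

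Other type I interferon-stimulated genes were read in the same way. Of 40 listed, 37 were measured, and 5 passed as higher and 0 as lower by limma, against 1.85% of all genes as higher. Of the 37, 25 were positive, against 49% of all genes, and the median was 0.11. With the replicate block 8 passed as higher and 2 as lower, in a fit that called 13.2% of all genes (6.39% as higher). Without Norrin replicate 2, which left 3.19% of all genes called, the median of the list was 0.04 and 20 were positive. Rtp4, a receptor transporter protein with antiviral activity, read 8.34, 9.53 and 8.90 in the Norrin pools, against 7.32, 7.70 and 7.71 in the wild type pools (1.35, limma adjusted p = 0.00946). Its other probe set, at a low level, differed by -0.03. Phf11d read 8.73, 9.37 and 9.58 in the Norrin pools, against 8.11, 7.98 and 8.34 in the wild type pools (1.08, limma adjusted p = 0.00651). The groups did not overlap for either gene. Lgals3bp, a secreted galectin-binding protein, differed by 0.90 (adjusted p = 0.0447), Parp14, an ADP-ribosyltransferase, by 0.68 (adjusted p = 0.0413, and 0.01 at its other probe set), and Trim30a by 0.56 (adjusted p = 0.0341), all by limma. Without Norrin replicate 2, 2 of these 5 remained, Rtp4 and Phf11d, and Lgals3bp (0.126), Parp14 (0.146) and Trim30a (0.125) did not pass.

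Rsad2, Oas1a and Mx1, also of that list, did not pass, and they were chosen here after their values were seen. Rsad2, an enzyme that makes a chain-terminating nucleotide, read 8.89, 10.30 and 9.98 in the Norrin pools, against 8.81, 8.56 and 8.81 in the wild type pools (0.99, limma adjusted p = 0.0718). Oas1a, a synthetase that activates RNase L, differed by 0.67 (limma adjusted p = 0.443), and Mx1, a GTPase that blocks influenza in mouse strains with a functional allele, by 0.13 (adjusted p = 0.911). Rsad2 passed with the replicate block.

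The ISG15 conjugation genes had 0 of 3 past the threshold by limma, and 1 lower, Ube2l6, with the replicate block. The conjugating enzyme Ube2l6 differed by -0.995 (limma adjusted p = 0.241). The interferon gamma and antigen presentation list had 0 of 22 past the limma threshold. Before adjustment 5 had a p under 0.05 by limma, against 14% of all genes. Of the 22, 15 were positive, and the median was 0.18. Without Norrin replicate 2, 13 were positive and the median was 0.02. With the replicate block 5 of these passed as higher: Gbp3, Gbp6, Gbp7, Iigp1 and Tapbp, beside the 6.39% of all genes called higher in that fit. Of 6 inhibitors of signalling 1 passed, Pias1, which binds STAT proteins, at 0.76 (limma adjusted p = 0.0104), with its other probe sets at 0.35 to 0.51. Of 17 NF-kB and inflammatory targets 1 passed, the NF-kB subunit Relb, at 1.06 (limma adjusted p = 0.00685). Both remained without Norrin replicate 2 (adjusted p = 0.0224 for Pias1 and 0.0256 for Relb). With the block Socs3 was added among the inhibitors, and Nfkbia and Icam1 among the NF-kB targets. At E8.5, 0 genes of these pathway lists passed by limma. Of the 37 other type I interferon-stimulated genes, 8 had a positive difference at E8.5, against 46.1% of all genes. In each E8.5 pool, 6 to 10 of these 37 lay below the lower quartile of all genes.

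**Figure D5:**
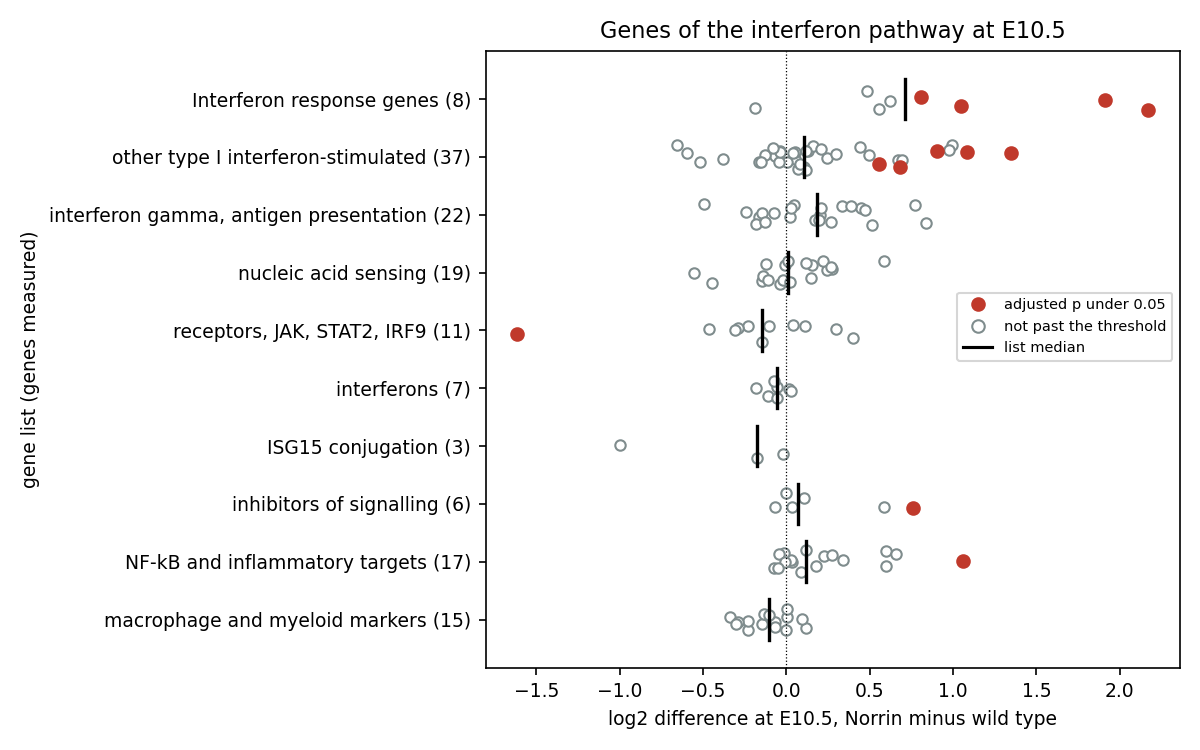
Norrin minus wild type log2 difference at E10.5 of every measured gene in 10 lists of the pathway and of macrophage markers, 1 point per gene, filled where the adjusted p was under 0.05, with a black line at each list median. The 8 interferon response genes have a median of 0.71, and the other lists have medians from -0.18 to 0.18.

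Markers of cell types that could change the level of interferon response genes were read beside them at E10.5. The mean over 15 macrophage and myeloid markers was 7.22 to 7.73 in Norrin pools and 7.46 to 7.84 in wild type pools, 0 of 15 passed the limma threshold or had an unadjusted p under 0.05, and 4 of 15 were positive. Csf1r, the macrophage growth factor receptor, read 9.89, 11.01 and 10.67 in Norrin pools, against 10.30, 11.49 and 10.80 in wild type pools. The mean over 6 lymphoid and plasmacytoid dendritic cell markers was 6.54 to 6.57 in Norrin pools and 6.59 to 6.61 in wild type pools.

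The lists of 5 other tissues had array means that did not overlap between the genotypes. This also held for the lymphoid list above and the lists of NF-kB targets and inhibitors. Means of the endothelial list overlapped (8.28 to 8.76 in Norrin pools and 8.15 to 8.72 in wild type pools), with 0 of 8 past the threshold. Among single genes, 11.4% had all Norrin pools above all wild type pools. Of all 18193 genes, limma called 404 lower and 337 higher at E10.5. The mean over erythroid markers was 10.46 to 10.51 in Norrin pools and 11.26 to 12.31 in wild type pools, with 5 of 7 lower by limma: Hemgn (-2.08), Klf1 (-1.83), Alas2 (-1.64) and, of the globins made in the early embryo, Hba-x (-0.57) and Hbb-bh1 (-0.58). The mean over visceral endoderm markers was 13.45 to 13.52 in Norrin pools and 13.82 to 13.94 in wild type pools, with 2 of 8 lower, the apolipoproteins Apoa1 (-0.78) and Apoa4 (-0.94). Both lists thus had calls in the lower direction and 0 in the higher one.

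The other tissue lists had calls in the higher direction and 0 in the lower one. The mean over parietal endoderm markers was 11.55 to 11.60 in Norrin pools and 10.75 to 10.83 in wild type pools, with 3 of 8 higher, the parathyroid hormone receptor Pth1r (2.45) and the collagens Col4a2 (1.23) and Col4a1 (0.62). The mean over mesoderm markers was 12.63 to 12.79 in Norrin pools and 12.07 to 12.25 in wild type pools, with 2 of 7 higher, the growth factor receptor Pdgfra (1.89) and the filament protein Vim (0.54). The mean over decidual markers was 8.85 to 9.35 in Norrin pools and 8.51 to 8.71 in wild type pools, with 1 of 9 higher, the signalling protein Wnt4 (1.00). In Norrin replicates 1, 2 and 3 that mean was 9.29, 8.85 and 9.35. Leaving out Norrin replicate 2 thus kept the Norrin pools with the higher decidual means. Without Norrin replicate 2, Hemgn (adjusted p = 0.0506), Vim (0.0809) and Wnt4 (0.095) did not pass, Prl8a2 passed among the decidual markers, and the other calls remained. Of the genes called higher with all arrays, Pdgfra also passed by limma at its other probe sets (2.03 and 1.71). The other probe sets of Vim (0.48 and 0.72), Col4a1 (0.69) and Wnt4 (0.39) did not pass. At E8.5 the visceral endoderm means also did not overlap (13.26 to 13.50 in Norrin pools and 13.83 to 13.87 in wild type pools). At that stage 1 of the 8 visceral endoderm markers was lower by limma. The parietal endoderm means did not overlap at E8.5 either (10.93 to 11.28 in Norrin pools and 10.53 to 10.89 in wild type pools). Those of the erythroid, mesoderm and decidual lists overlapped at E8.5. The part of these tissue differences in the interferon response genes was not tested.

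The genes most like the mean of the set were ranked by Pearson's r over the 12 arrays after the stage means were subtracted. The ranking held genes at or above the median gene level. It left out the set itself, Riken clones, predicted genes and entries named only by a clone or sequence number. The 6 highest were Flt1 (0.93), Tmem45a (0.93), Ccn1 (0.92), Scaper (0.91), Eef1a2 (0.90) and Zbtb21 (0.90). They were picked on the same arrays, on which the mean of the set was higher in Norrin at E10.5. Their Norrin differences at E10.5 follow in part from that choice and are not separate evidence. Flt1 encodes a receptor of vascular endothelial growth factor and differed by 1.69 at E10.5 (limma adjusted p = 2.9e-05). Ccn1, a secreted matrix protein, differed by 1.62 (limma adjusted p = 0.00294) and Tmem45a by 1.11 (adjusted p = 0.0141). Eef1a2 had the pattern without a difference past the threshold (0.11, limma adjusted p = 0.774).

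Among the 7 measured genes with a promoter window, 2 of the 4 with an ISRE match were past the threshold at E10.5 (Ifit1 and Cxcl10), and 2 of the 3 without one were (Ifit2 and Oasl2). Ifit3, with the same pair of matched strings as Ifit1 in the sequences given above, differed by 0.48, against 2.17 for Ifit1. These values describe 7 genes and were not tested.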

How the data were processed

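Expression was measured on 12 Affymetrix mouse genome arrays, 3 per group, each with RNA of a separate pool of yolk sacs. The authors deposited log2 expression values from RMA. The submitters' processing notes name that tool and give no version. Pairs of arrays within a stage share identical values and pairs across stages share none, so each stage was normalized in its own run. Arrays have no read depth, and their number limits the precision.

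Of 45101 probe sets, 34945 had 1 gene in the platform annotation, 932 several and 9160 were unnamed here, and 64 were controls. By gene ID, 34741 of the single-gene probe sets were found in RefSeq's gene table. Per gene the probe set with the highest mean was kept (18193 genes). Differences were tested with limma 3.58.1 (R 4.3.3; lmFit, contrasts.fit, eBayes) with 1 mean per group over 12 arrays, 8 residual and 4.17 prior degrees of freedom, two-sided, with Benjamini-Hochberg adjustment over all genes. The threshold was 0.05, and limma gave every adjusted p. Intervals are 95% and unadjusted. The script was tested on simulated data. Promoter windows are those of RefSeq, read with Python 3.11.15.

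Same-numbered pools of a stage deviated together (r = 0.73, 0.32 and 0.73 at E8.5, and 0.51, 0.21 and 0.22 at E10.5). The highest r with a pool of another number was 0.30, -0.06 and -0.49 at E8.5, and -0.20, 0.02 and 0.16 at E10.5. The margin was thus small for replicate 3 at E10.5. The replicate number was used as a block in an alternative fit. This pairing comes from the data, since the labels name no shared litter or day. Across stages r was -0.30 to 0.20. Genes and lists were chosen with earlier results of these data known. The text names all 9 genes, from each list genes past the threshold (at most 4 by size, with the rest of a list added where 5 passed), the interferons and the ISGF3 subunits, and the 6 genes most like the set; genes named beyond this were chosen after their values were seen. Alternatives were another scaling, a filter on low values, the mean over probe sets, array weights, another variance prior, fits of a stage or a genotype alone, the block and leaving out each array.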

Additional observations from a re-analysis of the deposited data

Results flagged for a closer look

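The estimated Norrin effects of Ifit1 and Irf7 had opposite signs at the stages, as had those of Ifit3, Cxcl10 and Bst2. For Ifit1, every Norrin pool lay above the wild type mean at E10.5 and every one below it at E8.5, and the effects differed by 2.54 log2 units (limma adjusted p = 0.0586). For Irf7, the same held, with offsets of 0.46, 0.80 and 0.41 in the Norrin pools at E10.5, and -0.50, -0.24 and -0.00 at E8.5. The Irf7 effects differed by 0.80 (limma adjusted p = 0.352). Neither difference passed the threshold in the test of the difference itself, and at E8.5 the Norrin and wild type pools of both genes overlapped. The E8.5 intervals of both genes held 0 (-1.04 to 0.29 for Ifit1 and -0.62 to 0.12 for Irf7). Their E8.5 levels lay below 6.18, the lower quartile of all genes.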

How the results depend on the processing

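At E10.5, Ifit1 (1.87 to 2.62), Ifit2 (0.93 to 1.25) and Oasl2 (1.45 to 2.15) stayed past the threshold in all 19 alternatives that tested them, and Cxcl10 (0.66 to 1.00) in 13 of 19. Several of these alternatives cannot move the E10.5 difference of these genes and change the p-values only. Among them are leaving out an E8.5 array, the replicate block and the mean over probe sets. The number of the 8 genes called at E10.5 was 4, 6 with array weights or the replicate block, 3 with the stage's arrays alone, and 3 to 5 with 1 array left out. The filter on low values kept 1 of the 8 genes, Bst2, so it left 0 called at E10.5 and 1 called in each comparison of stages, against 8 in Norrin and 6 in wild type, because fewer genes were tested. At E8.5, array weights called 1 gene, Irf7, as lower (adjusted p = 0.017), against 0, and leaving out 1 array called 0. In the interaction, the count was 0, 1 (Ifit1) with the mean over probe sets and with the replicate block, 6 with array weights, and 0 to 1 with 1 array left out. Ifit1 has 1 probe set, so its difference was 2.54 with the mean over probe sets too. Its adjusted p by limma moved from 0.0586 to 0.0402 through the values of other genes. The cause of the other changes was not tested. With 1 array left out, 8 genes were called between stages in Norrin and 5 to 7 in wild type. The replicate block across stages left these counts at 8 and 6, and the within-stage block changed no call of the 8 genes beyond those given for Ifit3, Irf7 and the Ifit1 interaction. No effect of a called gene changed its sign.

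Over all genes, the number called at E10.5 was 741, 2316 with array weights, 2400 with the replicate block and 353 to 894 with 1 array left out. At E8.5 it was 14, 5147 with array weights, 257 with the block, 22 with a trended robust prior, 0 with the stage alone and 1 to 20 with 1 array left out. In the interaction it was 17, 29 with joint quantile normalization, 37 with the mean over probe sets, 2728 with array weights, 376 with the block and 5 to 36 with 1 array left out. Between stages it was 6895 in Norrin and 5915 in wild type, 3176 and 2458 with the filter, and 11639 and 10797 with array weights. Signal over background limits all of the 8 genes but Bst2 at E8.5, and Ifit1, Ifit2, Oasl2 and Irf7 in wild type at E10.5.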
